A study of Mus musculus with 6 samples.

Results

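The interleukin-1 system was followed here through its 6 genes: the agonists Il1a and Il1b, the receptor antagonist Il1rn, the signaling receptor Il1r1, the decoy receptor Il1r2 and the shared co-receptor Il1rap. The members were taken by gene symbol, so they are 6 of the 32285 genes counted, and all 6 had counts. Their unique molecular identifiers (UMIs, the tags that count each captured RNA molecule once) were compared between neutrophils, macrophages or monocytes, dendritic cells, fibroblasts and carcinoma cells of 1 tumor pool.

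Cells of the mouse line MOC-2, which models squamous cancer of the head and neck, had been injected under the skin of male mice and grown to tumors. Of the 6 tumors, 3 had received vehicle (labelled DMSO) and 3 an experimental agent into the tumor 24 h before they were dissociated and sorted for live cells; which agents went into the treated tumors is not stated by the sample labels. The tumors were tagged, pooled and counted together, and no label ties a barcode set or tag to a tumor. The pool was therefore 1 sample, vehicle and treated cells could not be told apart, and no treatment effect is given. The 6 barcode sets of the matrix belong to no known group, so their values are shown singly or as a range and median.

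Interleukin-1 alpha and interleukin-1 beta are cytokines that bind the receptor Il1r1, which then recruits Il1rap and signals through Myd88 and the IRAK kinases to NF-kB. Interleukin-1 beta is made as an inactive precursor and is matured mainly by caspase-1 in inflammasomes, whereas interleukin-1 alpha is active as a precursor and acts as an alarm signal when epithelial cells are damaged. Il1rn occupies Il1r1 without signaling, and Il1r2 binds the cytokines but has no signaling domain. In tumors, myeloid cells are known as the main makers of interleukin-1 beta, and fibroblasts as cells that respond to it.

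In all, 14667 of 14818 cells were kept, with a median of 7751 UMIs per cell. Cells were assigned by counts of lineage markers, which did not include any of the 6 genes. This gave 376 neutrophils, 1919 macrophages or monocytes, 106 dendritic cells, 398 fibroblasts and 7289 carcinoma cells. Their median UMIs per cell were 758, 2099, 3102.5, 6885 and 11329, so the neutrophils were the shallowest cells. Markers such as S100a8, C1qa and Ccr7 lead their lineages because they were used to assign the cells. Of the leading genes not so used, G0s2, Cstdc4 and Acod1 stood first in neutrophils, Pf4 and Apoe in macrophages, Tbc1d4 and the class II genes H2-Eb1 and H2-Aa in dendritic cells, and Col1a2 and Col12a1 in fibroblasts. Carcinoma cells carried Xist at 1368 counts per 1e+06 UMIs (CPM) with Y-linked genes at 0, since the line expresses Xist and the hosts were male; both were used to choose them. Another 490 cells met both a host and the carcinoma rule and 3113 met none, and no barcode occurred in more than 1 set.

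The promoters are shown for the 3 genes whose level in neutrophils stood furthest above that in all other cells, and for Il1r1, which did not follow them. RefSeq's table (GRCm38.p6) listed starts for all 6 members, and each line is the 250 bases before a start, 5′ to 3′ on the gene's strand. Il1a lies at chr2:129309973-129310222 (minus strand), Il1b at chr2:129371140-129371389 (minus strand), Il1r2 at chr1:40085843-40086092 (plus strand) and Il1r1 at chr1:40224830-40225079 (plus strand), all upstream of the transcribed sequence from that start. By the GENCODE annotation of mm10, Il1a (ENSMUSG00000027399) spans chr2:129299610-129309972 and Il1b (ENSMUSG00000027398) chr2:129364570-129371139. Il1r1 (ENSMUSG00000026072) spans chr1:40225080-40317257 and Il1r2 (ENSMUSG00000026073) chr1:40074079-40125231, so the Il1r2 window lies inside the annotated gene, upstream of a later start. Il1rn (ENSMUSG00000026981) spans chr2:24336853-24351494 and Il1rap (ENSMUSG00000022514) chr16:26581704-26730117, both on the plus strand. All 6 are protein-coding. Capitals mark matches on either strand to 5 motifs: kappaB (GGGNNNNNCC), AP-1 (TGANTCA), C/EBP (TTNCNNAA), PU.1 (GAGGAA) and the TATA box (TATAAA).
Il1a: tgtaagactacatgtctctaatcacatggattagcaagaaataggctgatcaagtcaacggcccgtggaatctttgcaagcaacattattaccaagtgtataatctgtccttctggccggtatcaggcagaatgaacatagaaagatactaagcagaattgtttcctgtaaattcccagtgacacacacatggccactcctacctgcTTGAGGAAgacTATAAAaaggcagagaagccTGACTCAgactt
Il1b: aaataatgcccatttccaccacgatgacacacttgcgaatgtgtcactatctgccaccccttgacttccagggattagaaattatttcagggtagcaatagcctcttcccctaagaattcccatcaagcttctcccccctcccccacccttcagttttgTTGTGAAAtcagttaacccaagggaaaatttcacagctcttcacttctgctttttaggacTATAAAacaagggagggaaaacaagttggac
Il1r2: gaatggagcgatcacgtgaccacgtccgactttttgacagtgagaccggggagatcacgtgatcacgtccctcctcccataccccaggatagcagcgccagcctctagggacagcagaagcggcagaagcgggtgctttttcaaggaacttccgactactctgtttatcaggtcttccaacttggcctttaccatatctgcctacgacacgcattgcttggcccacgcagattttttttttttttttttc
Il1r1: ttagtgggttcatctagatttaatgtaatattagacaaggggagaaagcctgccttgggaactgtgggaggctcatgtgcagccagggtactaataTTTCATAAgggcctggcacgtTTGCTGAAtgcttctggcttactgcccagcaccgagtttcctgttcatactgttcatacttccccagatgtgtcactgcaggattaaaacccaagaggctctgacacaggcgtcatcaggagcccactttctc
Il1a and Il1b, neighbors on chromosome 2, each had a TATA match near the start, from base 32 to 27 before it in Il1a and from 31 to 26 in Il1b. A TATA match occurred in 12.4% of the 32851 promoter windows of this length. Il1a also had an AP-1 match 12 to 6 bases before the start, a motif present in 6.75% of windows, and a PU.1 match (23.3% of windows) that overlapped a C/EBP match. Il1b had a C/EBP match 91 to 84 bases before the start and Il1r1 had a pair of them, against 36.8% of all windows with at least 1. The Il1r2 window held none of these letters, and kappaB letters, found in 45.8% of windows, were in none of the 4 windows printed. RefSeq lists a second Il1r1 start, and its window at chr1:40266336-40266585, not printed, had a kappaB match 232 to 223 bases before that start. Windows of Il1rn and Il1rap, also not printed, had kappaB matches too.

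Levels are given as CPM of the UMIs summed over a lineage, with an exact 95% Poisson interval that covers counting error only. The assay tags the 3′ end of each molecule, and levels were not divided by gene length. Whether longer genes collected more UMIs was not tested, so levels and ratios of different genes compare UMIs only. Ratios of lineages carry an exact conditional binomial interval, again of counting error only, and no p-value is given because the pool is 1 sample.

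Il1b, the main secreted agonist, was the most abundant member in neutrophils at 9221 CPM (8924 to 9525). Macrophages or monocytes had 2058 CPM (2019 to 2098), dendritic cells 1055 (968 to 1149), fibroblasts 62.6 (54.0 to 72.3) and carcinoma cells 3.18 (2.83 to 3.56). The neutrophil level was 4.48-fold that of macrophages (4.31 to 4.65), and that of macrophages was 1.95-fold that of dendritic cells (1.79 to 2.13). Mast cells or basophils, with 308 CPM, came next. Below them the levels of fibroblasts, pericytes (51.4 CPM), T cells (44.5) and endothelial cells (39.9) had neighboring ratios whose intervals include 1. The dendritic cells carried carcinoma markers at 1120 CPM in sum, against 2691 in carcinoma cells. Neutrophils had these markers at 364 CPM, macrophages at 111 and fibroblasts at 50.5. When the processing was varied, Il1b in dendritic cells ran from 762 to 1687 CPM. The part of carcinoma RNA in the dendritic levels and their ratios was not tested.
In the 4 barcode sets with at least 20 neutrophils, Il1b in neutrophils was at 5396 CPM in set 1, 11241 in set 4, 10535 in set 5 and 9252 in set 6. In macrophages of the 6 sets it ran from 1715 to 2764 CPM with a median of 2127. Every neutrophil value lay above every macrophage value. In carcinoma cells it stayed between 2.56 and 3.72 CPM in all 6 sets.

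Il1a, the agonist that needs no processing, was lower than Il1b in every one of the 5 lineages when the barcode sets were pooled. It was at 599 CPM (525 to 681) in neutrophils, 77.9 (70.4 to 85.9) in macrophages, 2.58 (2.26 to 2.92) in carcinoma cells, 2.02 (0.741 to 4.40) in fibroblasts and 1.98 (0.0500 to 11.0) in dendritic cells, where it rested on 1 UMI. Neutrophils had 7.69-fold the macrophage level (6.52 to 9.06), an interval that lies above that of the same ratio for Il1b. Below macrophages, neighboring levels were within counting error of each other.
Among barcode sets, Il1a in neutrophils was at 874 CPM in set 1, 555 in set 4, 1037 in set 5 and 338 in set 6. In macrophages it was at 153, 88.3, 116, 47.6, 66.3 and 15.1 CPM in sets 1 to 6, so that the highest set had 10.2 times the lowest. Neutrophils were above macrophages in 4 of the 4 sets that had both, by 5.71-fold to 22.4-fold. In carcinoma cells Il1a was above Il1b in set 3, at 42.5 against 3.17 CPM, and in set 6, at 3.02 against 2.75 on 23 and 21 UMIs. It was below Il1b in the other sets.

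Il1rn, the antagonist, followed the agonists, with 1904 CPM (1770 to 2045) in neutrophils, 584 (564 to 606) in macrophages, 117 (88.7 to 150) in dendritic cells, 22.9 (17.8 to 29.0) in fibroblasts and 14.4 (13.6 to 15.1) in carcinoma cells. The neutrophil level was 3.26-fold that of macrophages (3.00 to 3.53), the smallest gap among the 6 genes between the first and the next of the 5 lineages. By barcode set, neutrophils had 1649 CPM in set 1, 1450 in set 4, 2428 in set 5 and 1944 in set 6, and macrophages 441 to 956 with a median of 618, so the lineages did not overlap. Osteoclasts, at 31.3 CPM, were within counting error of fibroblasts.

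**Figure D1:**
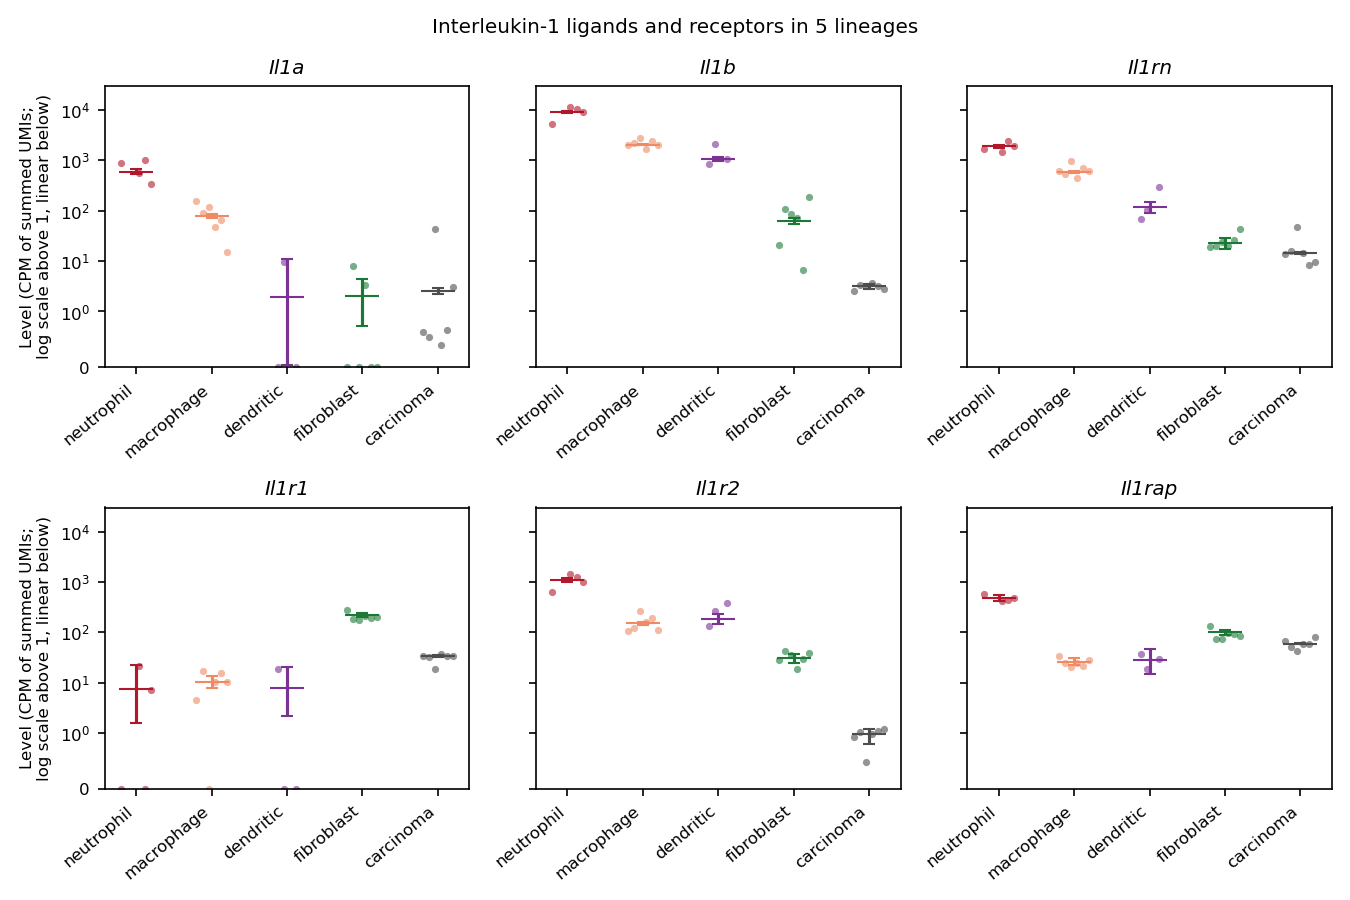
Level of each gene in the 5 lineages, in CPM of summed UMIs on an axis that is logarithmic above 1 and linear below. The wide dash is the pooled level with its exact 95% Poisson interval and each dot is 1 barcode set with at least 20 cells of that lineage, in the order of sets 1 to 6; neutrophils stand highest for every gene but Il1r1, which is highest in fibroblasts at 222 CPM.

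Il1r1, the signaling receptor, had the opposite distribution. It was at 222 CPM (205 to 240) in fibroblasts, 33.7 (32.5 to 34.9) in carcinoma cells, 10.2 (7.64 to 13.4) in macrophages, 7.90 (2.15 to 20.2) in dendritic cells and 7.58 (1.56 to 22.2) in neutrophils, where 3 UMIs were counted. Fibroblasts had 6.59-fold the carcinoma level (6.05 to 7.17), and carcinoma cells 3.29-fold the macrophage level (2.51 to 4.42). Among the 3 myeloid lineages the levels could not be ordered at this depth. Pericytes or smooth muscle cells, at 205 CPM (160 to 260), were within counting error of fibroblasts, and endothelial cells had 44.9 CPM (26.6 to 70.9).
In fibroblasts of sets 1 to 6, Il1r1 was at 278, 187, 176, 210, 195 and 201 CPM. In carcinoma cells it was at 34.3, 31.9, 19.0, 36.4, 33.6 and 33.8 CPM. Fibroblasts were above carcinoma cells in 6 of 6 sets, by 5.76-fold to 9.24-fold.

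Il1r2, the decoy, lay with the agonists: 1090 CPM (989 to 1198) in neutrophils, 184 (148 to 225) in dendritic cells, 150 (140 to 161) in macrophages, 30.3 (24.4 to 37.2) in fibroblasts and 0.990 (0.799 to 1.21) in carcinoma cells. Neutrophils had 5.93-fold the dendritic level (4.73 to 7.50), while dendritic cells and macrophages differed by 1.22-fold with an interval of 0.975 to 1.52. T cells, at 128 CPM (106 to 152), were within counting error of macrophages. Neutrophils of sets 1, 4, 5 and 6 had 625, 1429, 1252 and 1015 CPM, and macrophages 108 to 261 with a median of 140. Only set 5 held 20 cells of both neutrophils and dendritic cells, and there the ratio was 3.28. When the processing was varied, Il1r2 in dendritic cells ran from 132 to 447 CPM.

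Il1rap, the co-receptor that the receptors for interleukin-33 and interleukin-36 also use, had the narrowest range of levels over the 5 lineages. It was at 478 CPM (412 to 551) in neutrophils, 101 (89.9 to 113) in fibroblasts, 59.6 (58.1 to 61.2) in carcinoma cells, 27.7 (15.1 to 46.4) in dendritic cells and 26.2 (21.9 to 31.0) in macrophages. Neutrophils had 4.73-fold the fibroblast level (3.92 to 5.69), and fibroblasts 1.69-fold the carcinoma level (1.50 to 1.90). Neutrophils of sets 1, 4, 5 and 6 had 575, 416, 430 and 475 CPM, and fibroblasts 74.3 to 131 with a median of 89.7, again without overlap. By CPM, Il1rap and Il1r1 were thus highest in different lineages. In UMIs per cell, which follow the depth of the cells, Il1rap was at 0.503 in neutrophils, 0.754 in fibroblasts and 0.769 in carcinoma cells. The neutrophil lead over macrophages was also smaller per cell, at 9.70 against 5.45 UMIs for Il1b and 2.00 against 1.55 for Il1rn.

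Against all other kept cells, 5 of the 6 genes were at least 2-fold higher in neutrophils, where 8.4% of 14508 genes were. The fold was 80.4 for Il1b (77.5 to 83.3), 78.4 for Il1a, 92.9 for Il1r2, 43.0 for Il1rn and 8.50 for Il1rap, while Il1r1 was lower, with a fold of 0.209 (0.0431 to 0.612) on 3 UMIs; 34.9% of all genes were at least 2-fold lower in neutrophils. In macrophages 4 of 6 were higher (Il1a, Il1b, Il1rn and Il1r2), against 13% of all genes, and in dendritic cells 3 of 6 (Il1b, Il1rn and Il1r2), against 8.31%. In fibroblasts 2 of 6 were higher, against 10.4%, namely Il1r1 at 6.89-fold (6.34 to 7.48) and Il1r2 at 2.10-fold (1.68 to 2.60). The interval of Il1r2 includes the 2-fold limit, as does that of Il1rn in dendritic cells, at 2.37-fold (1.80 to 3.06). At least 2-fold lower were 2 of 6 in macrophages, 3 in dendritic cells and 3 in fibroblasts, against 31.7%, 14.1% and 15.2% of all genes. None of the 6 was in carcinoma cells, where 0.675% of all genes passed, and 4 were at least 2-fold lower there, against 11.2%. Il1r1 and Il1rap were near the level of the rest in carcinoma cells, with folds of 0.819 for Il1r1 and 1.12 for Il1rap. For carcinoma cells the rest includes the cells that met both a host and the carcinoma rule, and those that met none. These held 6.08% and 17.7% of all UMIs, with Xist at 1152 and 112 CPM. Their part in the carcinoma folds and counts was not tested.

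At equal depth, the cells in which a gene was seen at all were counted. With each cell thinned to 500 UMIs, which left out 45 neutrophils, 27 macrophages and 2 carcinoma cells, Il1b was seen in 90.0% of neutrophils (86.3 to 93.0, exact binomial interval). It was seen in 43.9% of macrophages, 35.8% of dendritic cells, 2.01% of fibroblasts and 0.206% of carcinoma cells. Unthinned, the shares were 93.4%, 62.9%, 51.9%, 7.29% and 2.81%. The carcinoma share came from cells with a median of 11329 UMIs against 758 in neutrophils. Cells that also met a host rule had been left out of the carcinoma cells, and had Il1b at 150 CPM. The carcinoma share can therefore lie below what free RNA gives in shallow cells, and it does not set that background. The shares in the 3 myeloid lineages lay above the carcinoma share beyond counting error, and the part of free RNA in them was not tested.
At the same depth, Il1r2 was seen in 39.3% of neutrophils, 10.4% of dendritic cells, 6.34% of macrophages, 1.26% of fibroblasts and 0.0549% of carcinoma cells. Il1r1 was seen in 11.8% of fibroblasts (8.81 to 15.4) and 1.95% of carcinoma cells (1.64 to 2.29), against 0.159% of macrophages and 1 of 331 neutrophils. No dendritic cell of 106 had an Il1r1 UMI at this depth. By the floor of 3 counts this allows up to 2.83% of cells with a UMI at 500 UMIs, and by the exact binomial limit up to 3.42%; unthinned, 2.83% had one. Below macrophages for Il1a, and among the 3 myeloid lineages for Il1r1, the order of the shares was not that of the CPM, and both rest on few UMIs, so no order is read there. For Il1rn the fibroblast share of 1.01% and the carcinoma share of 0.865% had overlapping intervals, against 51.4% of neutrophils.

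**Figure D2:**
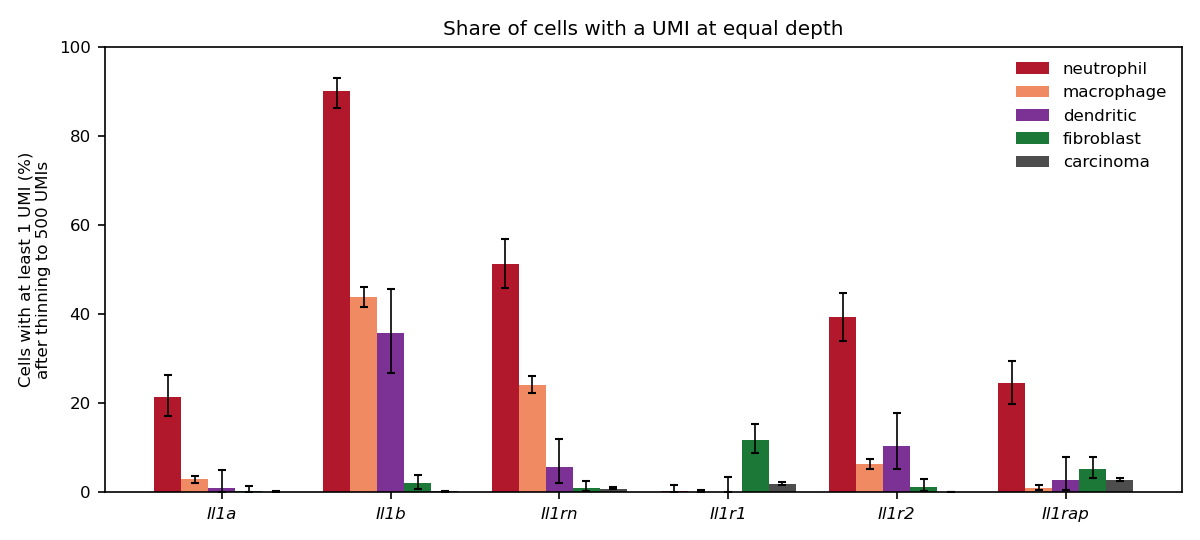
Share of cells with at least 1 UMI of each gene after every cell was thinned to 500 UMIs, in percent, by lineage, with exact 95% binomial intervals. The Il1b bars fall from 90.0% in neutrophils to 0.206% in carcinoma cells, and only Il1r1 has its tallest bar in fibroblasts, at 11.8%.

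Within fibroblasts the myeloid genes and Il1r2 moved apart when cells with any marker of another of the 5 lineages were left out. In the 190 fibroblasts that remained, Il1b was at 4.97 CPM in place of 62.6 and Il1rn at 4.97 in place of 22.9. Il1r2 was at 33.2 CPM in place of 30.3, and Il1r1 at 264. The fibroblasts as a whole carried neutrophil markers at 134 CPM and macrophage markers at 95.6 CPM in sum, with all 8 and all 12 of those markers above 0. Il1b in fibroblasts ran from 6.71 CPM in set 5 to 188 in set 6, a wider range than Il1r2 showed, from 18.6 to 42.2.

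Because neutrophils were few, most UMIs of the agonists were counted elsewhere. Macrophages or monocytes held 52.8% of all Il1b UMIs in kept cells and neutrophils 18.4%; for Il1rn the shares were 42.5% and 10.8%, and for Il1r2 36.7% and 20.7%. Carcinoma cells held 61.9% of Il1r1 UMIs against 12.9% in fibroblasts, and 69.1% of Il1rap UMIs, although their Il1r1 level was below that of fibroblasts. They held 1.51% of Il1b UMIs. These shares follow how many cells of each type were dissociated, sorted and pooled as well as the level in each cell.

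**Figure D3:**
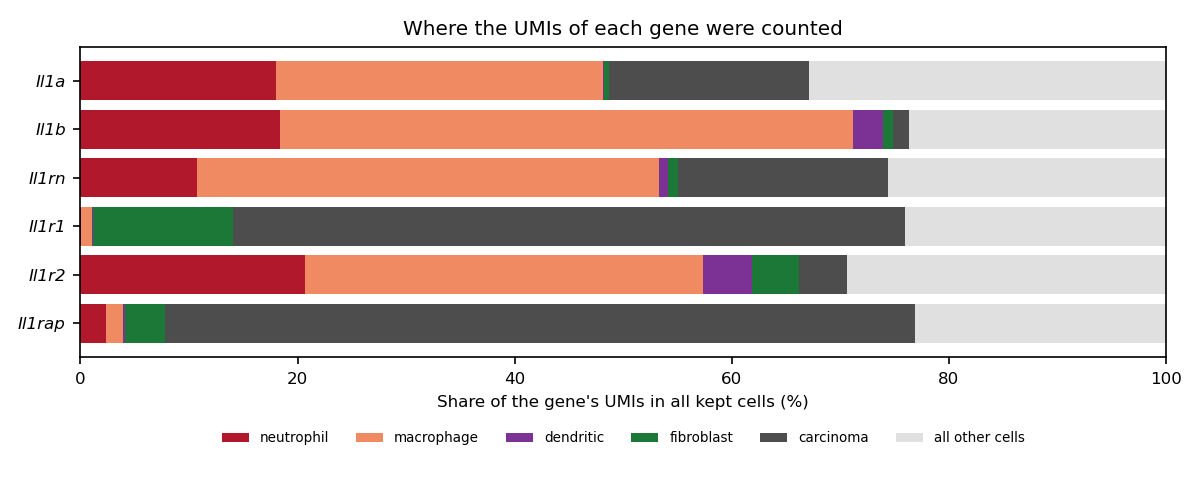
Share of each gene's UMIs in all kept cells that was counted in each lineage, in percent. Macrophages hold the widest block for Il1b (52.8%), Il1rn (42.5%) and Il1r2 (36.7%), and carcinoma cells for Il1r1 (61.9%) and Il1rap (69.1%); all other cells include those that met no rule.

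Antagonist and agonist, and decoy and signaling receptor, were set against each other within each lineage, which removes the depth of the cells. There were 0.206 Il1rn UMIs per Il1b UMI in neutrophils (0.191 to 0.223), 0.284 in macrophages (0.273 to 0.296) and 0.110 in dendritic cells (0.0830 to 0.145). Fibroblasts had 0.366 (0.273 to 0.485), and carcinoma cells 4.51 (3.98 to 5.13), with more antagonist than Il1b UMIs. In fibroblasts the ratio ran from 0.185 in set 2 to 4.00 in set 5, where 3 Il1b UMIs were counted, and both genes were at 4.97 CPM once cells with markers of other lineages were left out. In macrophages the ratio stayed between 0.244 and 0.346 over the 6 sets, and in neutrophils it was 0.306, 0.129, 0.230 and 0.210 in sets 1, 4, 5 and 6. In carcinoma cells it was above 1 in every set, from 2.63 in set 5 to 14.8 in set 3.
In UMIs, the decoy outnumbered the signaling receptor in all 3 myeloid lineages. Neutrophils had 144 Il1r2 UMIs per Il1r1 UMI (48.8 to 699, on 3 Il1r1 UMIs), dendritic cells 23.3 (8.78 to 87.1) and macrophages 14.7 (11.1 to 19.9). T cells had 64.5 (17.5 to 538, on 2 Il1r1 UMIs). The order turned over in fibroblasts, at 0.137 (0.108 to 0.170), and in carcinoma cells, at 0.0294 (0.0236 to 0.0361). In each of the 6 sets the ratio was below 0.23 in fibroblasts and below 0.035 in carcinoma cells.

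**Figure D4:**
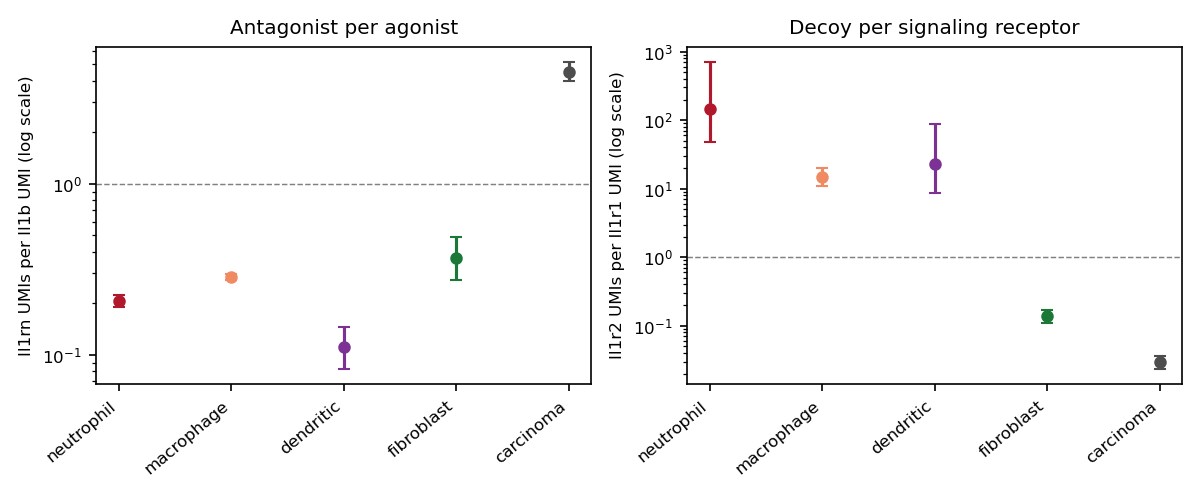
UMIs of the antagonist Il1rn per UMI of the agonist Il1b (left) and of the decoy Il1r2 per UMI of the signaling receptor Il1r1 (right) in each lineage, on log axes, with exact 95% intervals of counting error; the dashed line is equal counts. Carcinoma cells stand above the line on the left at 4.51, and fibroblasts and carcinoma cells below it on the right at 0.137 and 0.0294.

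Macrophages and monocytes were separated by C1q genes, which mark mature tissue macrophages, and by the monocytic markers Ly6c2, Ccr2 and Chil3. The 510 cells with a monocytic marker and no C1q gene had Il1b at 2846 CPM (2752 to 2943), against 1571 (1510 to 1633) in the 649 cells with 2 or 3 C1q genes and no monocytic marker. This held in 4 of the 6 barcode sets and was turned in set 3, at 3091 against 3404 CPM, and in set 6, at 1649 against 2118. Il1r2 showed the larger contrast, with 285 CPM (256 to 317) against 60.6 (49.3 to 73.8), and was higher in the monocytic cells in 6 of 6 sets. Il1a was at 120 CPM against 66.7 in the pool, with 64 of the 145 UMIs of the monocytic cells in set 1. It was higher in the monocytic cells in 4 of 6 sets, at 13.0 against 293 CPM in set 3 and at 10.4 against 11.3 in set 6. Il1rn was at 640 CPM (596 to 687) against 582 (545 to 620). The C1q cells without a monocytic marker had 0.908 times the Il1rn level of the monocytic cells (0.825 to 0.9999), an interval that ends just under 1. By barcode set the direction was mixed. These C1q cells were higher in set 1 (654 against 637 CPM), set 3 (1629 against 662) and set 4 (452 against 392), and lower in sets 2, 5 and 6. The 572 cells with both kinds of marker lay between in the pool for Il1b, at 1862 CPM, and for Il1r2, at 121. For Il1b, however, they were lowest in set 1 (1607 CPM, against 1716 and 3231) and set 3 (1972), and highest in set 6 (2346). For Il1r2 they were lowest in set 3, at 50.1 CPM on 3 UMIs. The subsets were defined by other genes, but they are cells of the same pool, and the share of each subset differed between barcode sets.
Among dendritic cells, 41 had both Ccr7 and Ccl22, markers of mature migratory cells, and had Il1b at 1932 CPM, Il1r2 at 289 and Il1rn at 289. The 18 cells with Cd209a, a marker of monocyte-related or type 2 dendritic cells, had Il1b at 2827 CPM and Il1r2 at 501. The 16 cells with Xcr1 or Clec9a, markers of type 1 dendritic cells, had Il1b at 1698 CPM, Il1r2 at 276 and no Il1rn UMI. The groups are small and not separate: 5 cells were in more than 1 of them. Those 5 held 74 Il1b and 21 Il1r2 UMIs, and had Il1r2 at 1022 CPM (633 to 1563). The 64 cells in exactly 1 group had Il1b at 1635 CPM and Il1r2 at 144 (98.1 to 205). The Il1r2 level of each group therefore depends on shared cells and is not read as a trait of that group. The 37 dendritic cells in none had Il1b at 402 CPM (330 to 485) and Il1r2 at 151. The dendritic cell with most Il1b UMIs had 57, or 10.7% of the lineage's total. The one with most Il1r2 UMIs had 17, or 18.3% of that gene's.
In T cells, Il1r2 was at 174 CPM (95.1 to 292) in the 34 cells with Foxp3, the regulatory T cell factor, at 64.7 (44.0 to 91.8) in 109 cells with Cd8a and no Foxp3, and at 186 (148 to 230) in the 186 with neither. The Foxp3 and the remaining cells were within counting error of each other.

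Cells with a UMI of 1 member were asked for the others, at 500 UMIs each. Of the 71 neutrophils with Il1a, 97.2% also had Il1b, and 67.6% had Il1rn (55.5 to 78.2), against 46.9% (40.7 to 53.2) of the 260 without Il1a. Il1r2 went the other way, in 25.4% (15.8 to 37.1) of neutrophils with Il1a and 43.1% (37.0 to 49.3) of those without, and the first and second interval overlap only at their edges. In macrophages, 85.5% (73.3 to 93.5) of the 55 cells with Il1a had Il1b, against 42.6% (40.3 to 44.9) of the rest. Il1b was also more frequent in the 120 macrophages with Il1r2 than in those without, at 70.0% (61.0 to 78.0) against 42.1%. Il1a and Il1r2 in neutrophils differed between barcode sets as well, and the part of those differences in the cell shares was not tested.
The counts per cell were uneven. The 38 neutrophils with most UMIs of the gene held 31.1% of their Il1b UMIs but 71.7% of their Il1a UMIs, and the highest count in a neutrophil was 44 UMIs for Il1b and 16 for Il1a, each taken by itself.

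Carcinoma cells differed from each other in Il1a, Il1rn and Il1r1 with the epithelial markers Krt5, Krt14, Krt8, Krt18 and Epcam. The 225 cells with 4 or 5 of 5 epithelial markers had Il1a at 46.5 CPM (39.4 to 54.6), against 1.07 (0.751 to 1.48) in the 3468 cells with 0 or 1. Il1rn was at 47.5 CPM (40.3 to 55.6) against 16.6 (15.2 to 18.0), and Il1r1 was lower, at 13.2 CPM (9.53 to 17.7) against 48.1 (45.8 to 50.5). Il1rap was also lower, at 39.2 CPM against 73.9. The median depth was 12528 UMIs in the first group and 8361 in the second, and its part in the number of markers seen was not tested.
Of the 225 cells, 131 came from barcode set 3, which held only 324 carcinoma cells. Without set 3, Il1a was at 9.46 CPM on 13 UMIs against 0.848, a ratio of 11.2 (5.30 to 22.3), and 10 of those 13 UMIs were in 2 cells of set 6. Il1rn was then at 20.4 against 16.6 CPM, a ratio of 1.23 with an interval of 0.808 to 1.79. Il1r1 kept its direction, at 8.01 against 48.6 CPM. In set 3 itself the Il1r1 contrast was not seen, at 16.9 CPM with 4 or 5 markers, 22.7 with 2 or 3 and 15.7 with 0 or 1. There Il1a was at 73.5 CPM in cells with 4 or 5 markers, 16.6 with 2 or 3 and 14.0 with 0 or 1, and it was seen in 40 of the 131 cells. The Il1a level over all carcinoma cells, 2.58 CPM, was 0.757 without set 3.

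**Figure D5:**
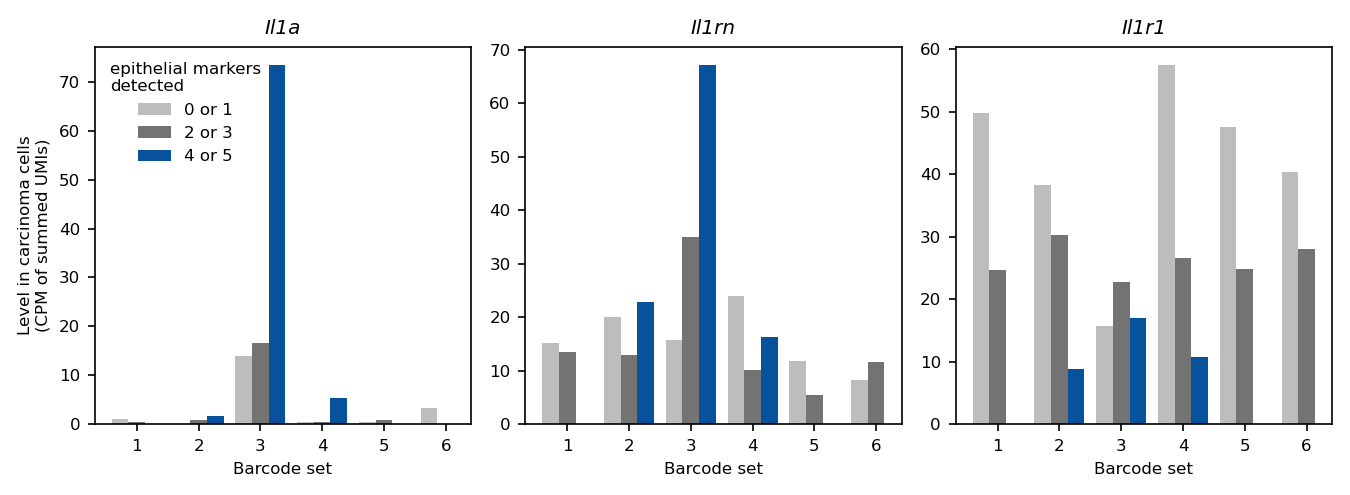
Level of Il1a, Il1rn and Il1r1 in carcinoma cells of each barcode set, in CPM of summed UMIs, by how many of 5 epithelial markers a cell had; groups under 20 cells are not drawn, and the axes differ. Il1a reaches 73.5 CPM in cells of set 3 with 4 or 5 markers, and Il1r1 is lowest in such cells in sets 2 and 4.

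The genes around the members were read from 4 lists. Of the release and processing genes, 13 had at least 50 UMIs, and 10 of them were at least 2-fold higher in macrophages than in all other cells, 5 in neutrophils, 3 in dendritic cells, 2 in fibroblasts and 0 in carcinoma cells, with median folds of 4.38, 2.37, 1.16, 0.901 and 0.629. The medians over all genes tested were 0.684, 0.345, 0.778, 0.858 and 1.06, and the shares of all genes at least 2-fold higher 13%, 8.4%, 8.31%, 10.4% and 0.675%. At least 2-fold lower were 0 of the 13 in macrophages, 1 in neutrophils, 0 in dendritic cells, 3 in fibroblasts and 6 in carcinoma cells, against 31.7%, 34.9%, 14.1%, 15.2% and 11.2% of all genes; these shares are the background for the other lists as well. Nlrp3, the sensor of the main inflammasome, was at 1274 CPM (1165 to 1391) in neutrophils, 382 in macrophages and 79.0 in dendritic cells. Pycard, its adaptor, was at 235 CPM in macrophages and 45.4 in dendritic cells, against 22.8 in neutrophils. Casp4, the caspase of the non-canonical inflammasome, was at 230 CPM in neutrophils, 56.8 in macrophages and 45.8 in fibroblasts, whereas Casp1 was at 20.2 CPM in neutrophils and between 14.1 and 35.6 in the other 4 lineages.
Of the 16 signaling genes, 7 were at least 2-fold higher in macrophages, 5 in neutrophils, 3 in dendritic cells, 1 in fibroblasts and 0 in carcinoma cells, with median folds of 1.62, 0.666, 1.44, 1.22 and 0.793. At least 2-fold lower were 2 in macrophages, 6 in neutrophils, 0 in dendritic cells, 1 in fibroblasts and 2 in carcinoma cells. The 1 of 16 higher in fibroblasts is below the 10.4% of all genes. Irak2, a kinase of the receptor complex, was at 255 CPM in neutrophils and 92.0 in macrophages, and Peli1, a ubiquitin ligase acting on IRAK kinases, at 314 in neutrophils. Ikbkb, an activating kinase of NF-kB, was at 176 CPM in dendritic cells and 112 in macrophages, and Traf6, the ubiquitin ligase below the IRAK kinases, at 43.5 in dendritic cells. Irak3, an inhibitor of the pathway, was the only one to pass in fibroblasts, at 23.9 CPM and 5.51-fold.
Of 17 known target genes, 7 were at least 2-fold higher in fibroblasts, 6 in neutrophils, 5 in macrophages and 0 in dendritic and carcinoma cells, with median folds of 1.33, 0.566, 1.07, 0.344 and 0.832 in fibroblasts, neutrophils, macrophages, dendritic and carcinoma cells. In that order 0, 8, 7, 12 and 4 of the 17 were at least 2-fold lower, against 15.2%, 34.9%, 31.7%, 14.1% and 11.2% of all genes. Cxcl2, a neutrophil chemokine, was at 46930 CPM in neutrophils and 9599 in macrophages, and Nfkbia, the NF-kB inhibitor that NF-kB induces, at 4455 in neutrophils. The acute-phase gene Saa3 was at 1331 CPM in macrophages. In fibroblasts Cxcl5, another neutrophil chemokine, was at 1623 CPM (12.2-fold) and Ccl7, a monocyte chemokine, at 1429 (3.16-fold).
Of 8 other ligands and receptors of the family with enough UMIs, 3 were higher in neutrophils, 3 in macrophages, 1 in fibroblasts and 0 in dendritic and carcinoma cells, against 8.4%, 13%, 10.4%, 8.31% and 0.675% of all genes. At least 2-fold lower were 3 in neutrophils, 4 in macrophages, 1 in fibroblasts, 4 in dendritic cells and 3 in carcinoma cells. Their median folds were 0.840, 0.821, 0.683, 0.103 and 0.800 in that order. Il1f9, which encodes interleukin-36 gamma, was at 485 CPM (419 to 559) in neutrophils, 991-fold over all other cells, against 2.6 CPM in macrophages and 0 UMIs in dendritic cells. Its receptor chain Il1rl2 was at 32.3 CPM (26.2 to 39.5) in fibroblasts, 35.2-fold. Il18bp, which neutralizes interleukin-18, was at 75.8 CPM in neutrophils and 60.6 in macrophages, and Il18 at 32.8 in macrophages. The carcinoma cells had Il33, an alarm cytokine of the family, at 401 CPM and its receptor Il1rl1 at 1096. Both were within 2-fold of the rest of the pool, which includes the cells that met both a host and the carcinoma rule or none. By lineage, Il33 was at 227 CPM in fibroblasts, 58.2 in neutrophils, 27.7 in dendritic cells and 24.0 in macrophages. Il1rl1 was at 1029, 180, 45.4 and 127 CPM in that order. Both genes were named with their levels already known.

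In the lists, a gene with 0 UMIs in a lineage entered the median as 0. Set at the floor of 3 counts instead, the median was 1.51 for release and processing in dendritic cells, 0.837 for signaling in neutrophils, and 3.14 and 0.455 for the other family members in neutrophils and dendritic cells.

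The genes most alike in pattern were ranked by Pearson r of log2(CPM + 5) over the 11 lineages with at least 20 cells, which share the pool and its free RNA. For Il1b they were the inflammasome sensor Nlrp3 (0.957), Cdkn1a (0.950) and Ypel5 (0.947), and for Il1a Cd300ld (0.993), Siglece (0.982), an inhibitory myeloid receptor, and Trem1 (0.980), an activating one. For Il1rn they were Gm14548 (0.972), Ist1 (0.971) and Arg2 (0.970), and for Il1r2 Slc15a3 (0.940), Fas (0.910) and Cd80 (0.903). For Il1r1 they were Antxr1 (0.974), Rbms3 (0.971) and C1qtnf1 (0.966), and for Il1rap Lsmem1 (0.923), P2ry2 (0.910) and Hal (0.903). Gm14548, with 54 UMIs in the pool, was at 10.1 CPM in neutrophils and Hal at 5.06, near the 5 CPM added before the logarithm. Their correlations rest on few counts.

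The size of the neutrophil lead depended on which neutrophils were counted. A filter of 500 genes or more and less than 15% mitochondrial UMIs kept 55 of the 376 neutrophils, and the ratio to the next lineage was then 4.47 for Il1a, 2.45 for Il1b, 1.75 for Il1rn, 3.50 for Il1r2 and 2.26 for Il1rap. The 55 had carcinoma markers at 798 CPM in sum, with 3 of 9 at 0, and neutrophil markers at 39681, against 75.7 and 78254 in the 321 it dropped; the part of this in the ratios was not tested. The Il1r2 ratio was 1.87 with lineages taken from clusters and 10.7 with cells carrying a marker of another lineage left out, and the Il1r1 ratio was 10.6 in the latter. Each gene kept the same highest lineage of the 5 under all 12 alternatives.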

How the data were processed

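Each tumor was tagged and pooled for 3′ single-cell RNA sequencing, per the labels' protocols. The deposited matrix holds raw UMI counts per gene and cell, aligned to mm10 with Cell Ranger 7.1, per the submitters' processing notes; the matrix header names 7.0.0. Seurat is also named there; its use is not given in the sources used here. The pool of 14818 cells is 1 sample.

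A cell was kept from 200 detected genes and below 25% of UMIs from mitochondrial genes, a limit low enough for neutrophils, which have few genes. A cell took the lineage with most distinct markers, at least 2 for neutrophil and dendritic, 4 for osteoclast, 5 for fibroblast (with at most 1 carcinoma marker) and 3 for other host lineages, at under 3 Xist UMIs; carcinoma needed 3 Xist UMIs and no Y-linked UMI. These limits were set on marker counts after the matrix was seen. At the limit lay 63 neutrophils, 305 macrophages, 47 dendritic cells, 120 fibroblasts and 262 carcinoma cells, with 75, 281, 189, 335 and 213 unassigned cells 1 below. The members and gene lists were chosen with earlier results of these data known. Of the listed family genes, 11 of 13 could be matched by symbol or RefSeq synonym.

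CPM, exact intervals (95%) and thinning were computed with Python 3.11.15, numpy 2.4.6, pandas 2.3.3 and scipy 1.17.1, and figures with matplotlib 3.10.9. A zero count was read with a floor of 3 counts, and a gene was called higher at 2-fold and more than 3 UMIs, among genes with at least 50. Barcode sets were used from 20 cells of a lineage. Doublets were kept; the alternative dropped scores of at least 0.25 (scanpy 1.11.5), which 287 cells reached. Clusters came from 3000 variable genes without the members, 40 components and 15 neighbors (leidenalg 0.10.2, scikit-learn 1.9.0, 23 clusters). The named genes were all 6 members, the 2 highest genes at 2-fold or more of each list in each lineage, and the 3 genes most alike to each member; Casp1, Il33 and Il1rl1, and lower values beside a named gene, were added after their values were seen. The steps were tested on simulated counts. The planned comparison of treated and vehicle tumors was not run, because no file or label ties cells to tumors.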

Additional observations from a re-analysis of the deposited data

Results flagged for a closer look

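In 22 pairs of gene and lineage with 4 to 6 barcode sets, 5 had a set that stood apart from the others by Dixon's criterion, which chance meets in about 1 of 20. The sets belong to no known group, and the causes were not tested. In carcinoma cells, barcode set 3 was highest for Il1a, at 42.5 CPM against 0.401 to 3.02 in the other 5, and for Il1rn, at 47.1 against 8.33 to 15.5. It was lowest for Il1r1, at 19.0 against 31.9 to 36.4. Set 3 had 324 carcinoma cells, of which 40.4% had 4 or 5 epithelial markers, against 0.435% to 3.15% in the other sets. In fibroblasts, set 1 was highest for Il1r1, at 278 CPM against 176 to 210, and set 6 for Il1rn, at 42.8 on 10 UMIs against 19.1 to 26.8.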

How the results depend on the processing

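Ratios of the highest to the next lineage were recomputed under 12 alternatives; of 72 values, 46 stayed inside the counting interval of the reported ratio, 26 left it and 0 fell below 1. Under the stricter cell filter (500 genes, 15% mitochondrial) the ratios were 4.47 for Il1a, 2.45 for Il1b, 1.75 for Il1rn, 3.50 for Il1r2 and 2.26 for Il1rap. With 1 more marker asked they were 5.50 for Il1b and 8.26 for Il1r1. With lineages from clusters they were 5.59 for Il1a, 4.17 for Il1b, 5.63 for Il1r1 and 1.87 for Il1r2. With cells carrying a marker of another of the 5 lineages left out they were 9.26 for Il1a, 5.14 for Il1b, 10.6 for Il1r1, 10.7 for Il1r2 and 5.79 for Il1rap. As a mean of the CPM per cell they were 4.81 for Il1b, 5.97 for Il1r1 and 6.39 for Il1rap. Leaving out 1 barcode set at a time gave 6.08 to 10.0 for Il1a, 3.86 to 4.77 for Il1b, 3.13 to 3.39 for Il1rn, 5.83 to 6.91 for Il1r1, 4.67 to 7.12 for Il1r2 and 4.35 to 5.37 for Il1rap. Why these values moved was not tested. Of 360 recomputed levels, 121 left their counting interval. No paired analysis was possible because the pool is 1 sample and no cell can be tied to a numbered tumor. Besides Il1a in carcinoma cells, leaving out a set moved a level by over 1.5 times only where UMIs were few: Il1r1 in neutrophils (3.31 CPM without set 4) and dendritic cells (2.88 without set 2), and Il1a in fibroblasts (0.809 without set 2) and dendritic cells (0 without set 3). Depth limits Il1r1 in myeloid cells and Il1a in dendritic cells and fibroblasts, which rest on 1 to 6 UMIs except in macrophages (52 Il1r1 UMIs).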
